A study of Mus musculus with 9 samples.

Results

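The transcripts of 7 enzymes of glutathione chemistry were followed across the RNA sequencing of mouse periosteal and marrow stromal cells: the glutathione peroxidase genes *Gpx1*, *Gpx3* and *Gpx7*, the glutathione S-transferase genes *Gsta4*, *Gstt2* and *Gsto1*, and *Idh2*. They were chosen by gene name, as 7 of the 8329 genes in the table, and each name matched 1 row. Glutathione is a small thiol that cells keep largely in its reduced form. Peroxidases such as those of *Gpx1* and *Gpx3* use it to reduce hydrogen peroxide and lipid peroxides. Transferases couple it to reactive compounds such as the aldehydes that oxidised lipids release. The oxidised glutathione is reduced again with NADPH, which in mitochondria comes in part from *Idh2*, the NADP-dependent isocitrate dehydrogenase of that compartment.

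The study asked whether skeletal stem cells of the periosteum (P-SSCs), the sheath on the outside of bone, resist stress better than mesenchymal stem cells of the bone marrow (BM-MSCs), and how P-SSCs change once a bone has been transplanted. The 3 groups of sorted cells, all from WT C57BL/6J mice and with 3 libraries each, were BM-MSCs at day 0, P-SSCs at day 0, and graft P-SSCs at day 3 after a donor femur had been placed under the skin of a recipient. The labels give no age and no marker that separates cells of the graft from cells of the recipient. Each library held RNA of different mice, and some held RNA of more than 1, so P-values measure the spread between these preparations.

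The peroxidases differ in the residue that does the chemistry, and the coding sequences around it are shown because the results below separate these enzymes. They were read 5′ to 3′ from GENCODE M21 transcripts on GRCm38, with the catalytic codon in capitals.
Gpx1: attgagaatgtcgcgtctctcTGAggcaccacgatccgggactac
Gpx3: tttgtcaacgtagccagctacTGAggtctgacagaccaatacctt
Gpx7: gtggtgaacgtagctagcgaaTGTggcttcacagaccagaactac
In *Gpx1* and *Gpx3* the codon is TGA, a stop codon that in selenoproteins is read as selenocysteine, and in *Gpx7* it is TGT, which encodes cysteine. It is codon 47 of 201 in *Gpx1* (exon 1 of 2, chr9:108339451-108339453), codon 73 of 226 in *Gpx3* (exon 2 of 5, chr11:54907256-54907258), and codon 56 of 186 in *Gpx7* (exon 2 of 3, chr4:108403430-108403432, minus strand). For the alignment TGA was translated as cysteine, so the catalytic position counts as shared with *Gpx7*. On this basis *Gpx1* and *Gpx3* shared 50.3% of 195 aligned residues. *Gpx7* shared 39.8% of 171 with *Gpx1* and 38% of 179 with *Gpx3*.

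The levels are FPKM, fragments scaled by gene length and by the library total, so they can be compared between genes within a library. Between libraries they depend on the scaling, whose effect is given with the comparisons. Library totals recovered from the values lay between 16890242 and 21315438 fragments, and the 7 genes held from 33 fragments (*Gsta4* in a graft library) to 444105 (*Gpx3* in a BM-MSC library). Counting error was at most 17.4% of a value for *Gsta4* in grafts and at most 9.81% elsewhere. No word of 50 bases in the first annotated transcript of any of the 7 occurred in a transcript of another gene. P-SSC replicate 3 stood apart from its group, with correlations of 0.858 and 0.87 to the other P-SSC libraries, against 0.945 to 0.992 for the pairs of libraries within a group that did not include it. The sort antigens and the marker lists for BM-MSCs, endothelium, cartilage and bone were not analysed here. The periosteal marker *Postn* lay at 90.6 to 125 FPKM in BM-MSCs, 391 to 476 in P-SSCs and 782 to 879 in grafts. Of 20 blood cell markers 6 were in the table, and their summed level was 1162 to 2810 FPKM in BM-MSCs, 16.6 to 79.4 in P-SSCs and 36.2 to 94.0 in grafts, with *Ptprc*, *Mpo* and *Adgre1* at 0 in all 3 P-SSC libraries. The adipocyte marker *Lpl* lay at 590 to 939, 95.8 to 164 and 13.4 to 16.9 FPKM in the same order, and the muscle marker *Myl1* at no more than 6.47 in any library.

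Between groups, the 7 genes did not move as 1 block. At steady state, 3 of them were lower in P-SSCs than in BM-MSCs (*Gpx3*, *Gsto1* and *Idh2*) and none was higher, where a gene is called at a limma adjusted p under 0.05. Among all 1948 genes tested, 24.2% were called in this comparison, 9.8% higher and 14.4% lower. The call of *Gsto1* was lost in 18 of 23 other settings, and without P-SSC replicate 3 the calls were 2 higher (*Gpx7* and *Gsta4*) and 2 lower (*Gpx3* and *Idh2*). In graft P-SSCs against P-SSCs, 3 were higher (*Gpx7*, *Gsto1* and *Idh2*) and 3 lower (*Gpx3*, *Gsta4* and *Gstt2*), against 34.1% of all genes called, 22.6% higher and 11.5% lower. Grafts against BM-MSCs gave the same 3 higher and the same 3 lower, against 41.9% of all genes called, 25.7% higher and 16.2% lower. These comparisons share libraries, so they are not independent of each other. All 7 genes passed the filter on low values.

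The libraries gave a similar picture without a test. Those of P-SSCs and BM-MSCs did not overlap for 4 of the 7 genes, 1 higher (*Gpx7*) and 3 lower, where 32.1% of all genes tested did not overlap, 12.9% higher and 19.2% lower. Those of grafts and P-SSCs did not overlap for any of the 7, with 3 higher and 4 lower, against 50.6% of all genes, 31.5% higher and 19% lower. Between grafts and BM-MSCs 6 of the 7 did not overlap, 3 in each direction, against 64.5% of all genes, 40.5% higher and 24% lower.

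**Figure D1:**
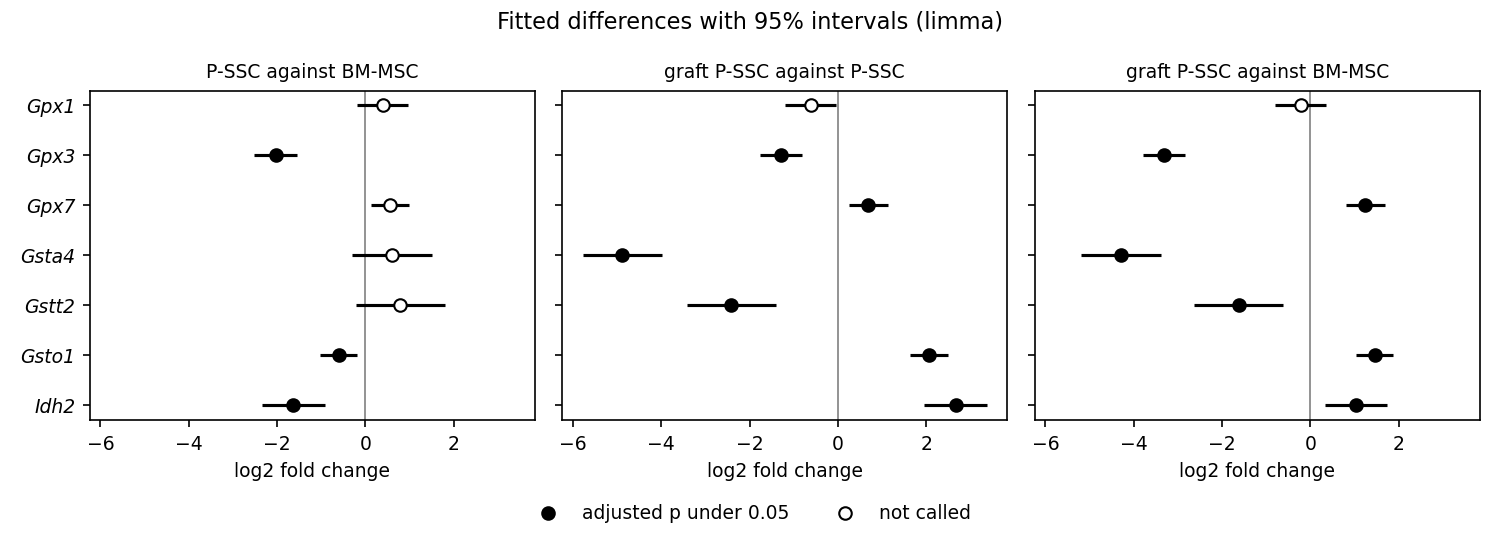
Fitted log2 fold changes of the 7 genes in the 3 comparisons (horizontal axis, on the log2(FPKM + 1) scale), with 95% intervals from limma as lines; filled points passed an adjusted p of 0.05 over all genes tested and open points did not. At steady state the filled points lie to the left (*Gpx3*, *Gsto1*, *Idh2*), and after grafting they lie on both sides, from -4.89 for *Gsta4* to 2.66 for *Idh2*.

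The median of all genes tested was itself shifted by 0.26 on the log2 scale in grafts against P-SSCs, and by 0.28 against BM-MSCs. Scaling the libraries by the median of ratios brought these medians to 0.017 and 0.083, and the calls between grafts and P-SSCs went from 441 higher and 224 lower to 311 higher and 302 lower. Between grafts and BM-MSCs they went from 501 and 315 to 387 and 364. Under this scaling *Gpx7* lost its call and *Gpx1* gained one in grafts against P-SSCs, and *Idh2* lost its call in grafts against BM-MSCs. Measured from that shifted median, the changes in grafts against P-SSCs were -1.55 for *Gpx3*, -0.88 for *Gpx1*, 0.43 for *Gpx7*, -5.15 for *Gsta4*, -2.67 for *Gstt2*, 1.80 for *Gsto1* and 2.40 for *Idh2*.

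*Gpx3*, the secreted peroxidase of blood plasma (chr11:54902453-54910377), had the highest level of the 7 in every library. It lay at 15742, 22733 and 17856 FPKM in the BM-MSC libraries, at 5708, 3407 and 4778 in P-SSCs, and at 1895, 1753 and 1926 in grafts. Every BM-MSC library was above every P-SSC library, and every P-SSC library was above every graft library. In P-SSCs the level was 4.05-fold lower than in BM-MSCs, with means of 4631 ± 1158 and 18777 ± 3585 FPKM (SD, n = 3), a log2 fold change of -2.03 (SE 0.21, limma adjusted p = 7.95e-05). It fell by a further 1.29 on the log2 scale in grafts (SE 0.21, limma adjusted p = 0.00149), and grafts were 10.1-fold below BM-MSCs. Only quantile normalization removed a call of this gene, between grafts and P-SSCs, where the change was -0.63 (limma adjusted p = 0.198). It also reduced the other differences of *Gpx3*, to -1.18 in P-SSCs against BM-MSCs and -1.81 in grafts against BM-MSCs. Only 1 other gene in the table exceeded *Gpx3* in each BM-MSC library, and its rank was 3 to 9 in P-SSCs and 6 or 7 in grafts. The summed level of the blood cell markers, led by *Hba-a2* and *Lyz2*, and the level of *Lpl* were also highest in BM-MSCs, whereas the marker *Csf1r* was highest in grafts (means of 0.968, 0.497 and 5.94 FPKM in BM-MSCs, P-SSCs and grafts). Their part in the difference in *Gpx3* was not tested, and in bulk libraries fewer cells of a type and less RNA per cell cannot be told apart.

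*Gpx1*, the peroxidase of the cytosol and mitochondria (chr9:108338903-108340343), had the second highest level in every library and the least certain differences. It lay at 853, 1077 and 1768 FPKM in BM-MSCs, at 1605, 1880 and 1223 in P-SSCs, and at 999, 969 and 1054 in grafts. BM-MSC replicate 3 was above all but 1 P-SSC library, so the steady-state groups overlapped, while every graft library was below every P-SSC library. The mean was 1570 ± 330 FPKM in P-SSCs and 1233 ± 477 in BM-MSCs (SD, n = 3), a log2 fold change of 0.39 with a 95% interval from -0.18 to 0.97 (limma adjusted p = 0.324). Without BM-MSC replicate 3 it was 0.69 (limma adjusted p = 0.0464), without replicate 3 of both groups 0.86 (limma adjusted p = 0.00364), and under quantile normalization -0.080 (limma adjusted p = 0.764). In grafts the value was -0.62 relative to P-SSCs (SE 0.26, limma adjusted p = 0.094), which passed the threshold in 6 of 23 other settings. Grafts and BM-MSCs overlapped, with a difference of -0.22 (95% interval -0.80 to 0.36, limma adjusted p = 0.504) that became 0.071 without BM-MSC replicate 3.

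The study also measured *Gpx1* by quantitative PCR in steady-state cells, with the primers AGTCCACCGTGTATGCCTTCT and GAGACGCGACATTCTCAATGA. Both matched exon 1 of *Gpx1*, where they bound a product of 105 bases (chr9:108339344-108339448) that ends just before the TGA codon shown above, and they matched 3 of its 4 annotated transcripts. FPKM instead counts fragments over the whole gene. *Sod1*, which the study measured in the same way, was not analysed here.

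*Gpx7*, the cysteine peroxidase of the endoplasmic reticulum (chr4:108400390-108406961, minus strand), ran opposite to *Gpx3*. It lay at 157, 164 and 147 FPKM in BM-MSCs, at 233, 302 and 171 in P-SSCs, and at 374, 362 and 375 in grafts. The 3 groups did not overlap, with grafts highest and BM-MSCs lowest, although P-SSC replicate 3 lay only just above the marrow libraries. Grafts, at 370.4 ± 6.94 FPKM (SD, n = 3), exceeded BM-MSCs by 1.24 on the log2 scale (SE 0.19, limma adjusted p = 0.00084), a call kept in all 23 other settings. Against P-SSCs the rise was 0.69 (SE 0.19, limma adjusted p = 0.0212), or 0.43 above the median of all genes. The call was lost in 8 of 23 other settings, including scaling by the median of ratios (0.36, limma adjusted p = 0.341) and leaving out any 1 graft library or P-SSC replicate 1 (limma adjusted p from 0.0548 to 0.0698). Between P-SSCs and BM-MSCs the value was 0.55 (SE 0.19, limma adjusted p = 0.0666), and it passed the threshold without P-SSC replicate 3 (0.77, limma adjusted p = 0.00288).

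**Figure D2:**
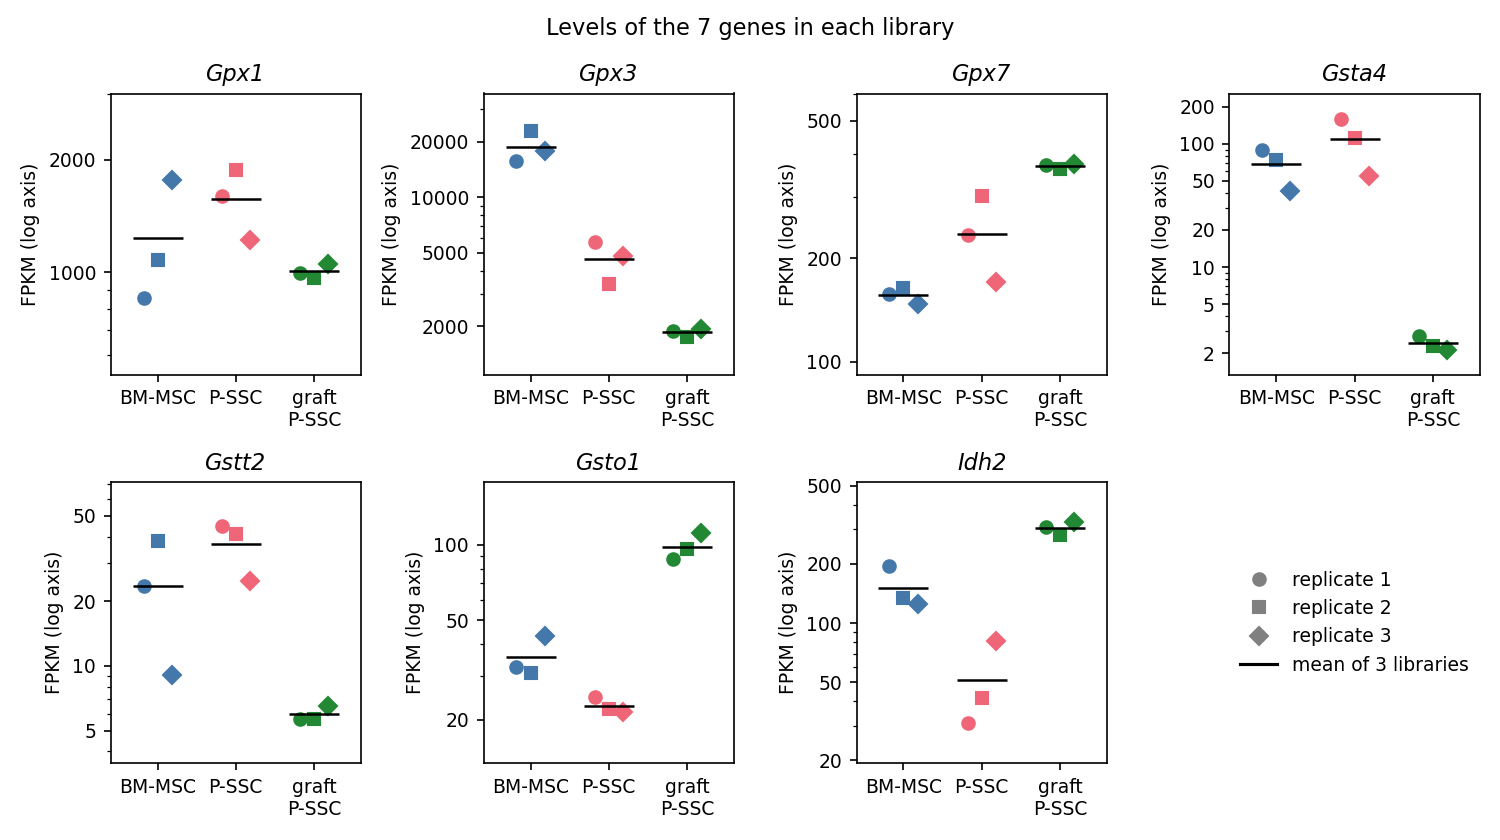
FPKM of each gene in each of the 9 libraries (vertical log axes, 1 panel per gene), with point shapes for replicates and a black line for the mean of the 3 libraries. Graft libraries lie close together for every gene, below all others for *Gpx3*, *Gsta4* and *Gstt2* and above all others for *Gpx7*, *Gsto1* and *Idh2*.

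As shares of the summed FPKM of these 3 peroxidases, *Gpx3* made up 90.3 to 94.8% in BM-MSC libraries, 61 to 77.4% in P-SSCs and 56.8 to 58% in grafts. *Gpx1* made up 4.49 to 8.94% in BM-MSCs, 19.8 to 33.6% in P-SSCs and 30.6 to 31.4% in grafts, so its shares in P-SSCs and grafts overlapped. *Gpx7* made up 0.682 to 0.939%, 2.76 to 5.41% and 11.2 to 11.7%, without overlap. The sum itself was 20165 ± 3627 FPKM in BM-MSCs, 6436 ± 1005 in P-SSCs and 3236 ± 138 in grafts (SD, n = 3). The groups did not overlap in this sum, which no test was run on. The *Gpx3* level was 100.1 to 139 times that of *Gpx7* in BM-MSCs and 4.84 to 5.13 times in grafts, a ratio within each library that a single scaling factor per library leaves as it is.

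*Gsta4*, the alpha class transferase that acts on the lipid aldehyde hydroxynonenal (chr9:78182774-78209349), showed the largest change of the 7. It lay at 89.7, 74.2 and 41.2 FPKM in BM-MSCs, at 160.4, 111 and 54.4 in P-SSCs, and at 2.76, 2.29 and 2.14 in grafts. The steady-state groups overlapped, and every graft library was far below all 6 of their libraries. The mean of 2.40 ± 0.326 FPKM in grafts was 45.3-fold below the P-SSC mean of 109 ± 53.0 (SD, n = 3), a change of -4.89 on the log2(FPKM + 1) scale (SE 0.40, limma adjusted p = 2.54e-05). By size this change ranked 10 among the 1948 genes tested. Graft libraries held 33 to 42 fragments of *Gsta4*, with 95% Poisson intervals for counting error that together ran from 1.47 to 3.73 FPKM. Against BM-MSCs grafts were lower by 4.29 (limma adjusted p = 3.27e-05). Neither call was lost in any of 23 other settings. Between P-SSCs and BM-MSCs the value was 0.60 (SE 0.40, limma adjusted p = 0.336), and single libraries moved it in both directions. It was 1.03 without P-SSC replicate 3 (limma adjusted p = 0.0365), 0.25 without P-SSC replicate 1 (limma adjusted p = 0.701) and 0.28 without BM-MSC replicate 3 (limma adjusted p = 0.7).

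*Gstt2*, a theta class transferase (chr10:75831114-75837424, minus strand), followed *Gsta4* at lower levels. It lay at 23.6, 38.3 and 9.05 FPKM in BM-MSCs, at 44.9, 41.3 and 24.8 in P-SSCs, and at 5.64, 5.67 and 6.52 in grafts. Every graft library was below every steady-state library, but BM-MSC replicate 3 came close to the grafts. Relative to P-SSCs it fell by 2.41 on the log2 scale in grafts (SE 0.45, limma adjusted p = 0.00286), from a mean of 37.0 ± 10.7 to 5.95 ± 0.497 FPKM (SD, n = 3), and the call was kept in all 23 other settings. Relative to BM-MSCs it fell by 1.62 (SE 0.45, limma adjusted p = 0.0177), and this call was lost in 5 settings, for example without BM-MSC replicate 2 (-1.18, limma adjusted p = 0.0614) or with counts recovered from FPKM (limma adjusted p = 0.0694). The other 3 of these settings left out BM-MSC replicate 1, graft replicate 1 or graft replicate 2 (limma adjusted p from 0.0541 to 0.0579). The steady-state groups overlapped, with a value of 0.79 in P-SSCs and a 95% interval from -0.22 to 1.80 (limma adjusted p = 0.257). It was 0.25 without BM-MSC replicate 3 and 1.23 without BM-MSC replicate 2 (limma adjusted p = 0.67 and 0.0718).

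*Gsto1*, the omega class transferase, which also reduces dehydroascorbate (chr19:47854970-47864790), was the 1 transferase of the 3 that rose after grafting. It lay at 32.4, 30.9 and 43.2 FPKM in BM-MSCs, at 24.6, 22.0 and 21.5 in P-SSCs, and at 87.6, 95.9 and 111 in grafts. None of the groups overlapped, with P-SSCs lowest and grafts highest. The rise from P-SSCs to grafts was 2.06 on the log2 scale (SE 0.19, limma adjusted p = 4.63e-05), from a mean of 22.7 ± 1.68 to 98.2 ± 11.9 FPKM (SD, n = 3), and against BM-MSCs it was 1.45 (SE 0.19, limma adjusted p = 0.000258). Both calls were kept in all 23 other settings. The lower level in P-SSCs than in BM-MSCs was small, at -0.61 (SE 0.19, limma adjusted p = 0.0412). It was below 0 in every setting, but the call was lost in 18 of 23, where the adjusted p reached 0.196. Leaving out any 1 library other than BM-MSC replicate 2 was enough to lose it (limma adjusted p from 0.0548 to 0.116). *Gsto1* lies inside *Cfap43* on the opposite strand and shares none of its exon bases, and *Cfap43* itself was at 6.96 to 27.1 FPKM.

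**Figure D3:**
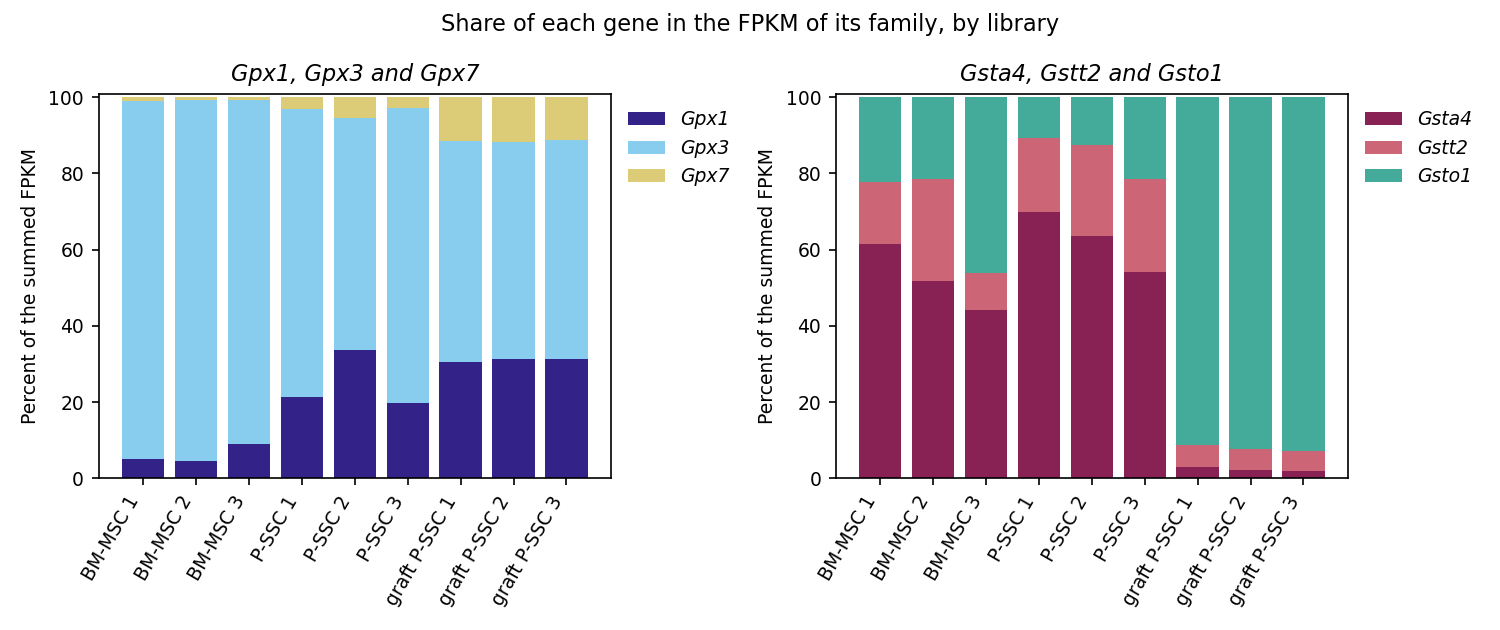
Share of each gene in the summed FPKM of the 3 peroxidases (left) or the 3 transferases (right) followed here, in each library (stacked bars, percent). Other genes of these families are not in the sums. *Gpx3* fills 90.3 to 94.8% of the peroxidase bars in BM-MSCs, and *Gsto1* fills 91.2 to 92.8% of the transferase bars in grafts.

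The summed level of the 3 transferases varied less between groups than its makeup. It was 128 ± 29.5 FPKM in BM-MSCs, 168 ± 64.8 in P-SSCs and 107 ± 12.1 in grafts (SD, n = 3). *Gsta4* accounted for 44.1 to 61.6% in BM-MSCs, 54 to 69.8% in P-SSCs and 1.78 to 2.88% in grafts, and *Gsto1* for 21.5 to 46.2%, 10.7 to 21.3% and 91.2 to 92.8%. Within single libraries the ratio of *Gsto1* to *Gsta4* had medians of 0.416 in BM-MSCs, 0.198 in P-SSCs and 41.8 in grafts, and the grafts did not overlap with the others. *Gstt2* stayed the smaller partner of *Gsta4* at steady state, with *Gsta4* at 1.94 to 4.56 times its level, but exceeded it in grafts, where that ratio was 0.328 to 0.489.

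*Idh2* (chr7:80094846-80115392, minus strand) was lowest in resting P-SSCs and highest in grafts. It lay at 194, 134 and 125 FPKM in BM-MSCs, at 31.0, 41.5 and 81.0 in P-SSCs, and at 307, 280.4 and 327 in grafts. The groups did not overlap, and P-SSC replicate 3 was the closest of its group to the marrow libraries. P-SSCs were 2.95-fold below BM-MSCs, with means of 51.2 ± 26.4 and 151 ± 37.8 FPKM (SD, n = 3), a log2 fold change of -1.63 (SE 0.32, limma adjusted p = 0.00397). Grafts were 5.96-fold above P-SSCs at 305 ± 23.2 FPKM (SD, n = 3), a log2 fold change of 2.66 (SE 0.32, limma adjusted p = 0.000234), and both calls were kept in all 23 other settings. Grafts also exceeded BM-MSCs, by 1.03 (SE 0.32, limma adjusted p = 0.0269). That call was lost in 7 settings, namely median-of-ratios scaling, no filter on low values, and leaving out BM-MSC replicate 2 or 3 or any 1 graft library, with values from 0.78 to 1.09 (limma adjusted p from 0.0584 to 0.0858). *Idh1*, the cytosolic and peroxisomal enzyme of the same reaction, was at 192 ± 86.0, 151 ± 42.6 and 235 ± 17.4 FPKM (SD, n = 3). Its values were -0.29 in P-SSCs against BM-MSCs (limma adjusted p = 0.563) and 0.67 in grafts against P-SSCs (limma adjusted p = 0.124).

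**Figure D4:**
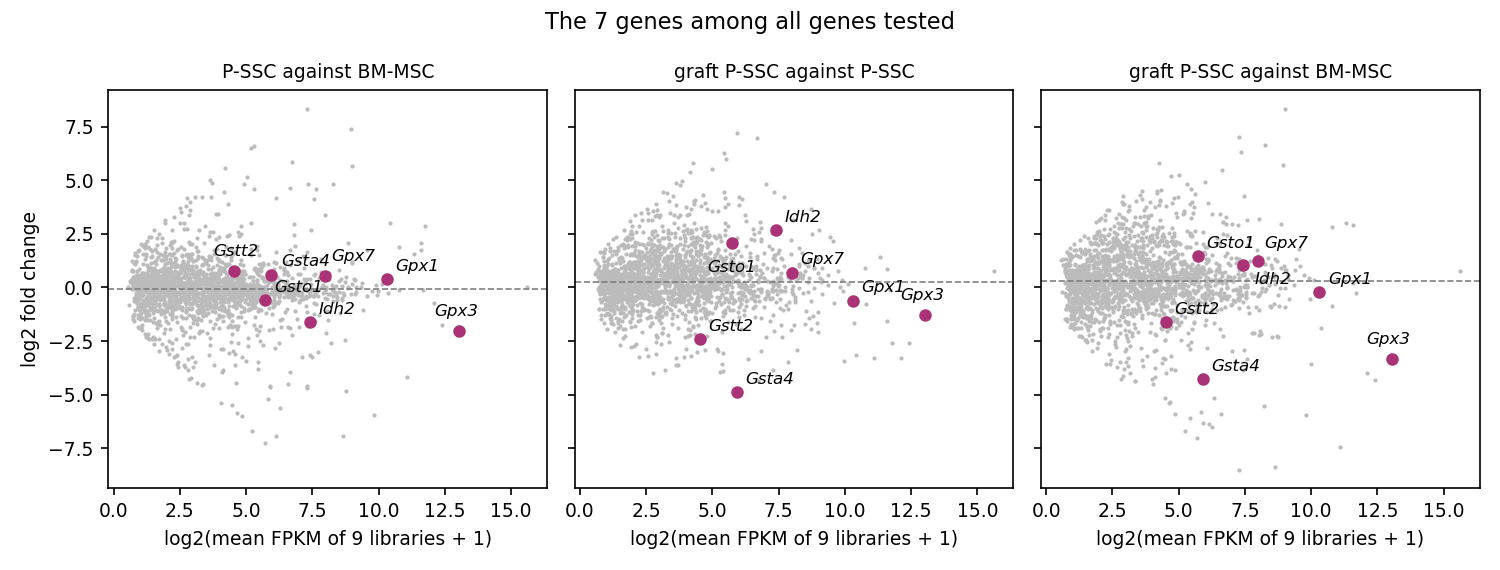
The 7 genes (purple) among all 1948 genes tested (grey) in the 3 comparisons, with the mean level of the 9 libraries on the horizontal log2 axis and the fitted log2 fold change on the vertical axis; the dashed line is the median of all genes tested. *Gpx3* lies at the far right in each panel, and *Gsta4*, at -4.89, is among the lowest points of the middle panel.

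Ordered by mean FPKM, *Gpx3*, *Gpx1* and *Gpx7* came first in this order in each group. In BM-MSCs *Idh2*, *Gsta4*, *Gsto1* and *Gstt2* followed. In P-SSCs the order was *Gsta4*, *Idh2*, *Gstt2* and *Gsto1*, and in grafts *Idh2*, *Gsto1*, *Gstt2* and *Gsta4*. Several neighbours in these orders did not differ beyond their spread. In BM-MSCs *Gpx7* and *Idh2* overlapped, as did *Gsta4* and *Gsto1*, and *Gsto1* and *Gstt2*. In P-SSCs *Gsta4* overlapped with *Idh2*, and *Idh2* with *Gstt2*. In grafts no neighbours overlapped, and *Gsta4*, ranked 112 to 289 among the 8329 genes in P-SSC libraries, had moved to ranks 1411 to 1473, whereas *Idh2* moved from 199 to 403 up to 63 to 72. The orders were the same when the length of the first annotated transcript was used in place of the authors' length.

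Over the 9 libraries, *Gsta4* and *Gstt2* varied together (Pearson r = 0.921 on the log2(FPKM + 1) scale), as did *Gsto1* and *Idh2* (r = 0.852). *Gsta4* and *Gsto1* ran opposite to each other (r = -0.958), and so did *Gpx3* and *Gpx7* (r = -0.927). These values describe 9 libraries in 3 groups and largely restate the group differences. Likeness was read among 1141 other genes tested whose highest group mean reached 10 FPKM. The genes most like *Gpx3* were *Serpine2* (r = 0.985), *Tmem231* (r = 0.976) and *Ackr4* (r = 0.972). *Gpx7* was most like *Adamts4* (r = 0.98), *Lgals1* (r = 0.973) and *Maged2* (r = 0.962). *Gsta4* was most like *Tlr2* (r = 0.98), *Islr* (r = 0.979) and *Mcee* (r = 0.976), and *Gstt2* like *Slc41a3* (r = 0.992), *Egfr* (r = 0.959) and *Phyh* (r = 0.944). *Gsto1* was most like *Pabpc1* (r = 0.993), *Slc31a1* (r = 0.991) and *Ckap2* (r = 0.986), and *Idh2* like *Angptl4* (r = 0.988), *Runx1* (r = 0.982) and *Thoc3* (r = 0.977). *Gpx1* had the weakest likeness, with *Mettl23* (r = 0.918), *Rps27rt* (r = 0.864) and *Tkt* (r = 0.842).

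*Gsto1* and *Idh2* shared the order of the groups, lowest in P-SSCs and highest in grafts, and the sequences around their start sites are shown for that reason. RefSeq windows on GRCm38.p6 reach from 250 bases before the start site to 50 after it and were found for 5 of the 7 genes. Capitals mark GC boxes (GGGCGG) and CCAAT boxes, on either strand.
Gsto1, chr19:47854723-47855022, plus strand: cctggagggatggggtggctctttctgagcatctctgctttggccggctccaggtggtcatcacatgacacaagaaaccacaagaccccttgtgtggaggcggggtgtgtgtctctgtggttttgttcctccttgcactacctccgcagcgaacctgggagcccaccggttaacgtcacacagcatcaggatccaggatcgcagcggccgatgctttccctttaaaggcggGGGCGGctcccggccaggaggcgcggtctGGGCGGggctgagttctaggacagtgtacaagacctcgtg
Idh2, chr7:80115301-80115600, minus strand: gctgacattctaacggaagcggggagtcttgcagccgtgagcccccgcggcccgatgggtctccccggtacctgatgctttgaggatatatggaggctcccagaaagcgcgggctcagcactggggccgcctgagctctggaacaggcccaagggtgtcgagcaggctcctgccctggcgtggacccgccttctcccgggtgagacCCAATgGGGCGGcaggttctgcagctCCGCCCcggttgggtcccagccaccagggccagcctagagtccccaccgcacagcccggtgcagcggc
Both windows held 2 GC boxes, and *Idh2* also held 1 CCAAT box. At least 1 GC box was in all 5 windows found, against 35.7% of 32851 mouse promoter windows of the same length. CCAAT was in 2 of the 5 (*Gpx3* and *Idh2*), against 37.4% of windows. The core of the antioxidant response element (TGACNNNGC, 12.4% of windows) and the AP-1 motif (TGANTCA, 7.81%) were in none of the 5. The core of the hypoxia response element (ACGTG, 19.6%) was in 1, that of *Gpx1*. All motifs were searched on both strands. A match describes letters in the window and not a bound site.

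Other genes of the pathway were read from lists. Of 62 genes of glutathione metabolism, 10 were in the table and 8 were tested, the 7 described and *Idh1*. Of the others, *Gpx5* was listed at 0 in every library and *Nat8* was too low to test. Of 38 other antioxidant enzymes, 4 were tested. Of these, 1 was lower in P-SSCs than in BM-MSCs, beside 14.4% of all genes tested, namely *Msra*, which repairs oxidised methionine (-1.29, limma adjusted p = 0.00449). In grafts against P-SSCs 3 of the 4 were higher, beside 22.6% of all genes tested, with *Hmox1*, the enzyme that breaks down heme, at 2.16 (limma adjusted p = 5.7e-05), *Msra* at 0.82 (limma adjusted p = 0.0321) and the peroxiredoxin *Prdx1* at 0.77 (limma adjusted p = 0.00595). *Ftl1*, the ferritin light chain, was at 3314 ± 640.5 FPKM in P-SSCs and 3014 ± 115 in grafts (SD, n = 3, limma adjusted p = 0.604). The median log2 fold change of these 4 genes was 0.80 in grafts against P-SSCs, beside 0.26 for all genes tested.

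Genes that supply NADPH or carbon to the mitochondrial cycle were tested in 4 of 29 cases. *Me2*, the mitochondrial malic enzyme, had the same order of groups as *Idh2*, lower in P-SSCs than in BM-MSCs (-1.36, limma adjusted p = 0.0189) and higher in grafts than in P-SSCs by 2.56 (limma adjusted p = 0.000524). The folate enzymes *Mthfd2* and *Mthfd1* rose in grafts against P-SSCs by 2.46 and 1.03 (limma adjusted p = 0.00159 and 0.0188). *Sdha*, a subunit of succinate dehydrogenase, lay at 383 to 530 FPKM in BM-MSCs, 406 to 499.9 in P-SSCs and 426 to 467 in grafts. Of 12 genes for glutamate and cystine supply 2 were tested, and *Slc3a2*, the heavy chain of the cystine transporter, rose in grafts against P-SSCs by 0.87 (limma adjusted p = 0.00921), while *Cbs* was at no more than 3.61 FPKM in any library. Of 20 regulators that sense oxidants or oxygen 2 were tested. *Hif1a*, which encodes a hypoxia-inducible subunit, rose in grafts against P-SSCs by 4.46 (limma adjusted p = 0.000511), and *Foxo3* had means of 0.806, 0.617 and 1.24 FPKM in BM-MSCs, P-SSCs and grafts.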

How the data were processed

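The authors sorted CD45-Ter119-CD31-CD51+CD200+ cells, made poly(A) libraries and mapped reads to GRCm38 with STAR 2.6.1d; the submitters' processing notes also name featureCounts 1.5.0-p3, fastp and CASAVA. The deposited values are FPKM in 9 columns, beside a gene length column (other annotation) that does not match the length behind FPKM. Strand of counting and annotation release are not given in the sources used here. With the mean GENCODE M21 transcript length of each gene, 95.4% of 20768 values of up to 2000 fragments came out whole within 0.05, which gave the library totals. The length of *Gsto1* was found by integer search.

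Genes that reached an FPKM of 1 in 3 or more of the 9 libraries (1948 of 8329) were compared as log2(FPKM + 1) with limma 3.58.1 in R 4.3.3 (1 fit, trend, two-sided, Benjamini-Hochberg over all genes tested, called under 0.05). Fold changes on this scale understate those of low genes. In data simulated for P-SSCs against BM-MSCs over 1948 genes, 77.5% of 200 changed genes were recovered and 4.91% of calls were false. The simulation drew independent normal values with the spread averaged over all 3 groups, and set no library apart. It changed fewer genes than the 24.2% called in the data, so its rates may differ from those of the data.

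The 7 genes and all lists were chosen with earlier results of these data known. Other genes named are those tested of each list and, for each of the 7, the 3 genes with the highest Pearson r. Alternatives changed the pseudocount, filter, scaling, libraries in the fit, replicate block, trend and weights, and left out each library. Further alternatives, voom on the recovered fragments and leaving out replicate 3 of both steady-state groups, were chosen after seeing the data. No protein sequence table was used (residues were translated from the GENCODE transcripts), and promoters of *Gsta4* and *Gstt2*, were not used here, and some results of the lists are not reported here.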

Additional observations from a re-analysis of the deposited data

How the results depend on the processing

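In 23 other settings, 427 of 483 values of the 7 genes kept their direction and their side of the threshold, 39 lost a call and 14 gained one. Signs changed for *Gpx1*, to -0.080 under quantile normalization (P-SSCs against BM-MSCs), and to 0.071 in grafts against BM-MSCs without BM-MSC replicate 3, alone or with P-SSC replicate 3 (-0.45 to 0.071 over the libraries left out in turn). Calls of *Gsta4*, *Gstt2*, *Gsto1* and *Idh2* in grafts against P-SSCs held in all 23. Library weights raised the genes called between grafts and P-SSCs from 665 to 1165, and the cause was not tested. Leaving out 1 library gave 399 to 593 genes called in P-SSCs against BM-MSCs, 450 to 892 in grafts against P-SSCs and 555 to 1038 in grafts against BM-MSCs, each highest without P-SSC replicate 3, and 2 to 4, 5 to 7 and 4 to 6 of the 7 genes. The main fit takes its spread from all 9 libraries. With only the libraries of the groups compared, 324, 645 and 1068 genes were called in the same order. In P-SSCs against BM-MSCs the limma adjusted p was then 0.00416 for *Gpx3*, 0.0219 for *Idh2* and 0.134 for *Gsto1*. With quantile normalization the split was 312 higher and 355 lower in grafts against P-SSCs, and 387 and 405 in grafts against BM-MSCs.

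Libraries with the same replicate number did not deviate together (correlations from -0.434 to 0.132), so the numbers are not taken as pairs. Between P-SSCs and grafts, libraries with different numbers had correlations from -0.313 to 0.381, the highest for P-SSC replicate 3 with graft replicate 1. The cause was not tested. With a replicate block 441, 621 and 755 genes were called in the 3 comparisons in the same order, and 2, 6 and 6 of the 7, and the adjusted p of *Gsto1* in P-SSCs against BM-MSCs became 0.0601 (limma).

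An exact permutation test of 3 libraries against 3 cannot go below p = 0.10, so single genes rest on the spread that limma shares between genes. In the simulation of P-SSCs against BM-MSCs, with its averaged spread, 46% of changes of 1 on the log2 scale were recovered and 92% of changes of 3. The steady-state values of *Gpx1*, *Gpx7*, *Gsta4* and *Gstt2* in the data were all below 1.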

Other observations

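Enzymes that make oxidants, the counterpart of those described above, also differed between the groups. *Cybb*, the catalytic subunit of the phagocyte oxidase, was at 25.8 to 79.9 FPKM in BM-MSCs, at 0 in all 3 P-SSC libraries and at 0.316 to 1.35 in grafts, and it was called lower in P-SSCs than in BM-MSCs (limma adjusted p = 1.79e-05). *Nox4* and *Duox1*, oxidases that produce hydrogen peroxide, were higher in P-SSCs. *Nox4* was at 7.49 to 15.4 FPKM in P-SSCs, at most 0.0468 in BM-MSCs and 6.16 to 7.56 in grafts, and it was called higher in P-SSCs than in BM-MSCs (limma adjusted p = 2.76e-05). *Duox1* was at 26.6 to 32.3 FPKM in P-SSCs, at most 0.0312 in BM-MSCs and 6.28 to 7.69 in grafts, called higher in P-SSCs than in BM-MSCs (limma adjusted p = 1.54e-06) and lower in grafts than in P-SSCs (-1.90, limma adjusted p = 0.00047). *Cybb* is also a gene of blood phagocytes, and the summed blood cell markers were likewise higher in BM-MSCs. The part of such cells in its level was not tested.

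Of the 5 blood cell markers tested, 2 were called lower in P-SSCs than in BM-MSCs, *Hba-a2* and *Lyz2* (limma adjusted p = 7.95e-05 and 0.00807), beside 14.4% of all genes tested. In grafts against P-SSCs 2 were called higher, *Csf1r* and *Adgre1* (limma adjusted p = 0.00431 and 0.0413), beside 22.6% of all genes tested, at means of 5.94 and 1.96 FPKM in grafts, while their means in BM-MSCs were 0.968 and 1.97. *Lyz2*, which macrophages also express, had a value of 0.32 in that comparison (limma adjusted p = 0.759), and *Hba-a2* one of -1.44 (limma adjusted p = 0.159). *Ptprc*, which encodes the CD45 antigen that the sort selected against, was at 0.326 to 1.35 FPKM in BM-MSCs, at 0 in P-SSCs and at 0.113 to 0.311 in grafts.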
